A study of Mus musculus with 60 samples.

Results

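Oxidative phosphorylation subunits are the proteins of the 5 enzyme complexes of the inner mitochondrial membrane that turn the energy of food into ATP. Their nuclear genes were collected by symbol: a probe was taken when its RefSeq accession belonged to a gene whose name began with Nduf and then a, b, c, s or v (complex I), was Sdha, Sdhb, Sdhc or Sdhd (complex II), or began with Uqcr (complex III), Cox4 to Cox8 (complex IV) or Atp5 (complex V). The rule found 93 genes of the 20018 genes with a named probe, and each gene was read from its brightest probe. Of these, 38 were assigned by name to complex I, 4 to complex II, 8 to complex III, 18 to complex IV and 17 to complex V. The other 8 (Ndufaf1 to Ndufaf8) share the letters of complex I but encode factors that help to assemble it, so they were counted apart. Ndufa4, since placed in complex IV, and its paralog Ndufa4l2 were counted with complex I by their names.

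The study gave benzo(ghi)perylene (BghiP), a polycyclic aromatic hydrocarbon, to male MutaTMMouse, a transgenic strain that carries a lacZ reporter for mutation assays, and asked how gene expression responded in lung, liver and forestomach. There were 20 mice of about 10 weeks of age, gavaged daily for 28 days with olive oil alone (D0, mice 1 to 5) or with BghiP in olive oil at 6.25 (D1, mice 6 to 10), 12.5 (D2, mice 11 to 15) or 25 mg/kg-bw/day (D3, mice 16 to 20). The 3 tissues of every mouse were taken 72 h after the last dose. Each of the 60 RNA samples was labelled with Cy5 and hybridised on a 2-colour Agilent mouse array with Universal Mouse Reference RNA, a pool from several mouse cell lines, in Cy3. A level below is log2 of Cy5 over Cy3, that is, the tissue relative to this reference at 1 probe, and a difference is a difference of such levels. The dyes were not swapped, so levels of different genes were not set against each other.

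In the respiratory chain, complex I takes electrons from NADH and complex II takes them from succinate, which also makes it an enzyme of the citric acid cycle. Complex III passes the electrons on through cytochrome c to complex IV, cytochrome c oxidase, which hands them to oxygen, and complex V uses the resulting proton gradient to make ATP. Most subunits are made in every cell, and tissues rich in mitochondria, such as liver, heart and the acid-secreting parietal cells of the stomach, hold more of them. Several complex IV subunits have tissue isoforms: Cox4i2 is known as the lung isoform, Cox6a2, Cox7a1 and Cox8b as the heart and skeletal muscle isoforms, and Cox6b2, Cox7b2 and Cox8c as testis isoforms.

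Of the 93 genes, 83 were well above background in the tissue channel on all 60 arrays and 89 were in the reference channel. Genes seen well above background on 5 or more of the 20 arrays of a tissue were tested there: 90 genes in lung and in forestomach and 89 in liver, with 90 tested between tissues. Ndufaf8 and the testis isoform Cox7b2 were well above background on no tissue array, Cox8c was so on 1 forestomach array, and Cox8b was so on no liver array. The labelled tissues carried their markers: the mean log2 ratio of 5 lung epithelial genes lay between 6.91 and 7.63 on the lung arrays, that of 5 hepatocyte genes between 7.38 and 8.53 on the liver arrays, and that of 5 squamous epithelial genes between 3.64 and 4.77 on the forestomach arrays. Some arrays also carried markers of other tissues. Glandular stomach genes (Atp4a, Atp4b, Gif, Muc5ac, Tff1 and Pgc) averaged from 0.24 to 8.10 on the forestomach arrays, and heart muscle genes averaged from 0.27 to 4.73 on the lung arrays. The lung array of D0 mouse 1 stood apart with a skeletal muscle mean of 4.49, against at most 0.30 on the other lung arrays, and with a squamous epithelial mean of 3.86, against at most 0.09. The lung array of D3 mouse 20 had a hepatocyte mean of 4.35, against at most 0.77, and hepatocyte genes averaged up to 4.72 on forestomach arrays. The forestomach array of D0 mouse 2 had a lung epithelial mean of 5.88, against at most 2.17, and that of D0 mouse 5 had the highest fat mean, 5.37. On the lung arrays the fat mean had a median of 1.34. It was 4.43 in D1 mouse 8, 3.89 in D2 mouse 14 and 3.48 in D3 mouse 20. Since RNA came from random sections of each organ, fewer cells of a type and less RNA per cell cannot be told apart.

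The subunits were lower in lung than in liver across all 5 complexes. Averaged over the 4 doses, 73 of 90 genes were lower in lung and 6 were higher, where a call required a Benjamini-Hochberg adjusted p of 0.05 or less in limma and a difference of at least 1.5-fold, while 19.4% of all 33255 probes tested were called lower and 26.2% higher. The median difference of the genes was -1.21, against 0.06 over all probes. For 67 of the 93 genes every one of the 20 lung values lay below every one of the 20 liver values, which was so for 15.4% of all probes. Complex II and complex III were lower in lung without exception, with 4 of 4 genes (median -1.44) and 8 of 8 genes (median -1.41). The counts were 32 of 38 genes for complex I (median -1.12), 15 of 17 for complex V (median -1.25) and 5 of the 7 tested assembly factors (median -1.26). Complex IV stood apart from these counts, with 9 of 16 genes lower, 5 higher and a median of -0.63. The lung and forestomach arrays shared 5 slides and the liver arrays lay on 3 others, so that slide and liver cannot be told apart in any comparison with liver.

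**Figure D1:**
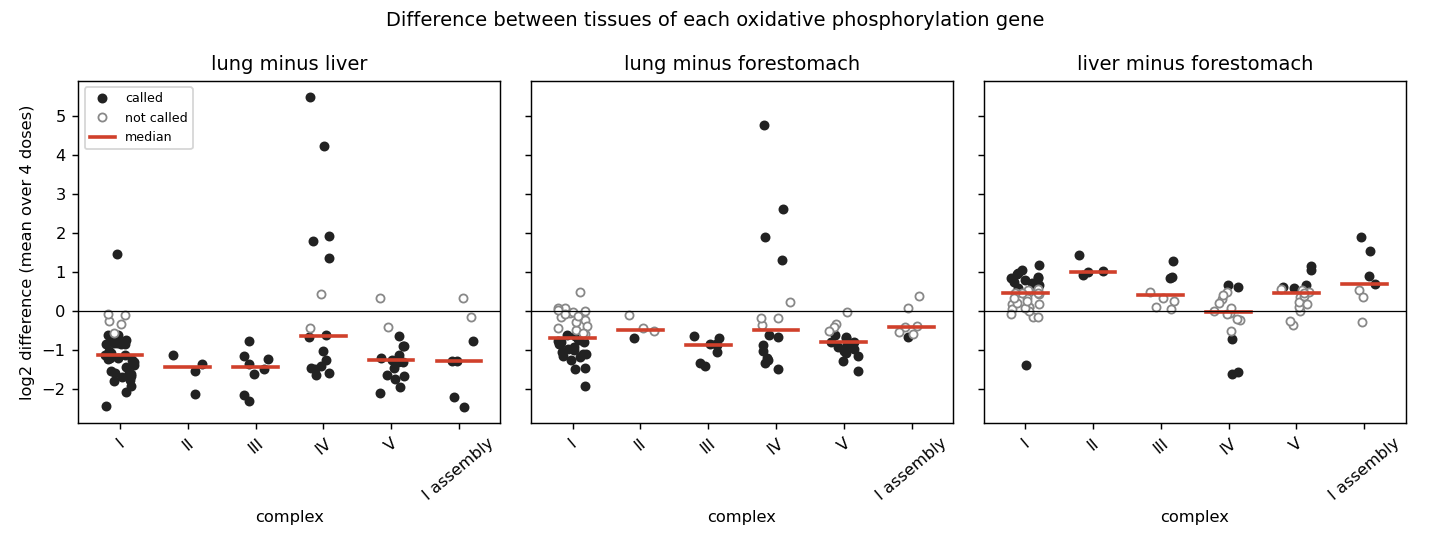
Differences between tissues in log2 ratio to the reference for each tested gene, by complex, with the median of each complex; assembly factors of complex I are shown apart. Most genes of complexes I, II, III and V lie below 0 for lung against liver, with medians from -1.44 to -1.12, and the 6 genes called higher in lung are 5 of complex IV and Ndufa4l2 of complex I.

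Within complex I, Ndufab1, which is also the mitochondrial acyl carrier protein, showed the largest difference between lung and liver. Its level was lowest at -1.12, had a median of -0.80 and reached -0.46 in lung, against 1.35, 1.61 and 1.86 in liver and 0.58, 1.03 and 1.88 in forestomach. Lung values thus lay below those of both other tissues without overlap. The difference was -2.42 (SE 0.079, 5.36-fold, adjusted p = 2.30e-33) against liver and -1.91 (SE 0.079, 3.77-fold, adjusted p = 4.52e-28) against forestomach. Ndufa10, an accessory subunit, was lower in lung than in liver by a log2 difference of -2.07 (4.19-fold) and Ndufa11, at the middle of the complex, by -1.11. The 5 genes of complex I with no call between lung and liver were Ndufa5, Ndufa7, Ndufb3, Ndufb7 and Ndufc2. Ndufa4l2, a paralog of Ndufa4 known to be induced by low oxygen, went the other way: it was 2.74-fold higher in lung than in liver (1.46, SE 0.128, adjusted p = 3.38e-15). Its levels ran from 1.82 to 2.97 in lung, from 0.80 to 1.25 in liver and from 1.40 to 3.39 in forestomach, so lung and liver did not overlap. Ndufa4 itself, first assigned to complex I and since placed in complex IV, was lower in lung than in liver (-1.57, 2.97-fold) and than in forestomach (-1.47, 2.77-fold), and the levels of this pair therefore ran in opposite directions between lung and liver.

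All 4 genes of complex II were highest in liver. Sdhb, the iron-sulfur subunit, lay at 0.03, 0.25 and 0.86 (lowest, median and highest of 20 arrays) in lung, at 2.07, 2.50 and 2.75 in liver, and at 0.50, 0.77 and 2.02 in forestomach. Liver was above both other tissues on all arrays. Sdhb was 4.37-fold lower in lung than in liver (-2.13, SE 0.099, adjusted p = 1.64e-26), 2.73-fold higher in liver than in forestomach (1.45, SE 0.099, adjusted p = 2.69e-19) and 1.60-fold lower in lung than in forestomach (-0.68, SE 0.099, adjusted p = 2.36e-08). Sdha, the flavoprotein that holds the active site, was lower in lung than in liver by -1.11 (2.15-fold) and higher in liver than in forestomach by 1.02 (2.03-fold). The membrane anchors gave similar figures: for Sdhc the lung to liver difference was -1.35 and the liver to forestomach difference 0.92, and for Sdhd they were -1.53 and 1.01. None of Sdha, Sdhc and Sdhd was called between lung and forestomach by its brightest probe, but the dimmer probe of Sdhc was called lower in lung (-0.75, adjusted p = 2.85e-10). Of 23 genes with several tested probes, every probe gave the same call in 21 for lung against liver, in 19 for lung against forestomach and in 18 for liver against forestomach, and 0 had opposite calls.

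In complex III the largest difference by brightest probe was that of Uqcrfs1, the Rieske iron-sulfur protein. Lung values ran from -1.38 to -0.42 with a median of -0.74, liver values from 1.06 to 1.82, and forestomach values from 0.08 to 1.84 with a median of 0.50. Uqcrfs1 was 4.89-fold lower in lung than in liver (-2.29, SE 0.108, adjusted p = 3.68e-26) and 2.65-fold lower than in forestomach (-1.40, SE 0.108, adjusted p = 5.62e-17). Uqcr10, the middle gene of complex III with Uqcr11, was lower by -1.34. The dimmer probe of Uqcrq gave larger differences for lung, -2.95 against liver (adjusted p = 5.87e-32) and -1.62 against forestomach (adjusted p = 4.12e-20). For complex V, the 3 Atp5g genes are of interest since they encode the same mature subunit of the rotating c ring with different import sequences. Atp5g1 was 4.25-fold lower in lung than in liver (-2.09, SE 0.106, adjusted p = 7.69e-25) and Atp5g3 was 3.84-fold lower (-1.94, SE 0.105, adjusted p = 1.32e-23). Atp5g2 was not called in any comparison between tissues: its levels were 0.09 ± 0.18 in lung, -0.26 ± 0.13 in liver and 0.10 ± 0.32 in forestomach (mean ± SD, n = 20 each). The gene for the stalk subunit OSCP, Atp5o, was lower in lung than in liver (-1.73, 3.31-fold) and than in forestomach (-1.54, 2.91-fold), and Atp5b, the catalytic beta subunit and the middle gene of the complex, was lower than in liver by -1.25.

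Complex IV held both directions. Cox5b, a subunit made in most cells, had a median of -0.77 in lung and a highest value of -0.31, against 0.56 to 1.32 (median 0.92) in liver and 0.11 to 1.45 (median 0.48) in forestomach. No lung array reached the lowest array of either other tissue. Cox5b was lower in lung than in liver by a log2 difference of -1.63 (SE 0.085, adjusted p = 2.33e-24), Cox7b by -1.57 (2.97-fold) and Cox6b1 by -1.24. Cox4i1, the common form of subunit 4 and one of the middle genes of the complex, was lower by -0.65. The 5 complex IV genes called higher in lung were all tissue isoforms: Cox4i2, Cox6a2, Cox6b2, Cox7a1 and Cox8b. Together with Ndufa4l2 they were the 6 genes of the whole set called higher in lung than in liver.

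The isoform pairs were then read side by side. Cox4i2, the lung isoform of subunit 4, ran from 1.06 to 2.10 in lung with a median of 1.55. In liver it ran from -0.60 to -0.08 (median -0.37), and forestomach gave -0.84 to 0.25 (median -0.35). Lung was above both others on all arrays, and the difference was 1.93 (SE 0.081, 3.81-fold, adjusted p = 1.92e-28) against liver and 1.90 (SE 0.081, 3.73-fold, adjusted p = 1.51e-27) against forestomach, where 18 of 20 arrays were well above background. Its partner Cox4i1 lay at 0.12 ± 0.11 in lung, 0.78 ± 0.16 in liver and 0.28 ± 0.63 in forestomach (mean ± SD, n = 20). Cox6b2, the testis isoform of subunit 6b, was also above liver on every lung array, at 1.97 to 2.88 against 0.13 to 0.86, a 3.50-fold difference (1.81, SE 0.110, adjusted p = 2.40e-21), and was 2.47-fold higher in lung than in forestomach, where 18 of 20 arrays were well above background. Its partner Cox6b1 ran the other way, from -0.80 to -0.36 in lung and from 0.27 to 0.95 in liver.

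Of the genes measured in both lung and liver, the muscle isoform Cox6a2 had the largest difference. It lay at 0.12, 1.13 and 2.99 in lung, at -4.84, -4.39 and -3.64 in liver and at -4.76, -3.77 and -1.26 in forestomach. It was well above background on all 20 arrays of lung and of liver but on 14 of 20 of forestomach, so its forestomach mean rests in part on dim spots. The highest forestomach value came from D0 mouse 2, the array with lung epithelial genes. Cox6a2 was 45.1-fold higher in lung than in liver (5.50, SE 0.213, adjusted p = 4.53e-30) and 27.5-fold higher than in forestomach (4.78, SE 0.213, adjusted p = 9.27e-27), a difference of 4.93 without mouse 2. Its partner Cox6a1 was 2.03-fold lower in lung than in liver (-1.02, SE 0.138). Cox8b lay at 2.51, 3.97 and 6.49 in lung and at 0.24, 1.40 and 5.34 in forestomach. As it was not well above background on any liver array, its difference is a bound, the lung mean in the normalised Cy5 channel against the lowest signal that counted as well above background there: Cox8b was at least 14.1-fold higher in lung than in liver (adjusted p = 1.23e-19), and at least 2.49-fold higher in forestomach than in liver (adjusted p = 1.43e-06), where 17 of 20 forestomach arrays measured it. The same bound in the single Cy5 channel is open to dye bias. Cox8b was 6.19-fold higher in lung than in forestomach (2.63, SE 0.285, adjusted p = 6.94e-12), and its partner Cox8a lay at 0.13 ± 0.07, 0.55 ± 0.12 and 0.73 ± 0.54 in lung, liver and forestomach.

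Cox7a1, the third muscle isoform, varied widely among arrays of lung and of forestomach. In lung it ran from -0.37 to 2.87 with a median of 0.66, in liver from -1.08 to -0.35 with a median of -0.74, and in forestomach from -2.02 to 3.48 with a median of 0.40. Some lung arrays and some forestomach arrays lay within or below the range of liver and others far above it. Cox7a1 was 2.59-fold higher in lung than in liver (1.37, SE 0.379, adjusted p = 9.30e-04) and 2.94-fold lower in liver than in forestomach (-1.55, SE 0.379, adjusted p = 2.48e-04), while lung and forestomach differed by -0.18 (SE 0.379, adjusted p = 0.677). Both calls were lost when D0 mice were compared alone, with differences of 1.52 (adjusted p = 0.074) and -1.12 (adjusted p = 0.208). Its partner Cox7a2 was 2.72-fold lower in lung than in liver (-1.44) and 2.03-fold lower than in forestomach (-1.02), and the related Cox7a2l, which helps to join complexes III and IV into supercomplexes, was not called in any comparison by its brightest probe. A dimmer probe of Cox7a2l was called higher in lung than in liver (0.72, adjusted p = 1.15e-12) and lower in liver than in forestomach (-0.59, adjusted p = 6.41e-10), and its remaining probe was not called.

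**Figure D2:**
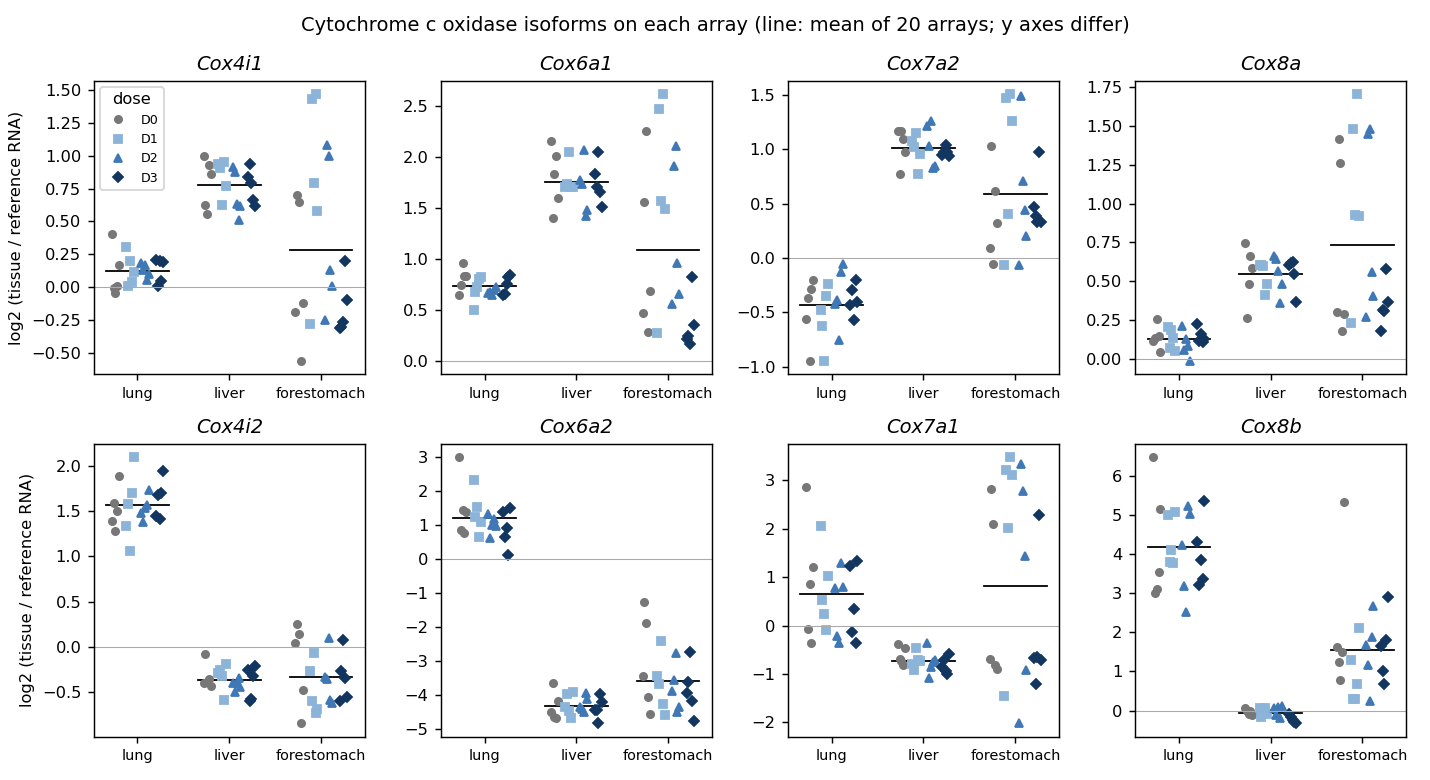
Log2 ratio to the reference of 4 common complex IV subunits (Cox4i1, Cox6a1, Cox7a2, Cox8a) and of their tissue isoforms (Cox4i2, Cox6a2, Cox7a1, Cox8b), one point per array, by tissue and dose. Cox4i2 and Cox6a2 lie above liver on all 20 lung arrays, and Cox7a1 in forestomach falls into arrays at -0.64 or below and arrays at 1.44 or above.

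The promoters of Sdhb and of the Cox7a and Cox8 pairs are shown as examples of common subunits and muscle isoforms. Of these, Cox8a was not called between lung and liver by either probe (-0.42 and -0.56). They are RefSeq sequences on GRCm38.p6, from 250 bases before to 50 bases after the start of the gene, written 5′ to 3′ on the strand of the gene. Capitals mark the motifs searched, on either strand.
Sdhb, chr4:140961021-140961320, plus strand: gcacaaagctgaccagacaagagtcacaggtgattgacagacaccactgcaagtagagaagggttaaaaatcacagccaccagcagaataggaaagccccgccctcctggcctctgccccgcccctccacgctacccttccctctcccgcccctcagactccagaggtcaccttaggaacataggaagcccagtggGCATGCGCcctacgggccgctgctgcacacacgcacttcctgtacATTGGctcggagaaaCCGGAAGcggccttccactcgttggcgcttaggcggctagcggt
Cox7a2, chr9:79759804-79760103, minus strand: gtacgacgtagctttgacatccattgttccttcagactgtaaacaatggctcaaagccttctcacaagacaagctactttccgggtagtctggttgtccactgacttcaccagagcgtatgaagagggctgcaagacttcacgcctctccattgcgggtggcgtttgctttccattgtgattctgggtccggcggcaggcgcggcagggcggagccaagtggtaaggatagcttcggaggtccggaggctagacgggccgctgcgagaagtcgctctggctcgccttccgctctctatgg
Cox7a1, chr7:30183921-30184220, plus strand: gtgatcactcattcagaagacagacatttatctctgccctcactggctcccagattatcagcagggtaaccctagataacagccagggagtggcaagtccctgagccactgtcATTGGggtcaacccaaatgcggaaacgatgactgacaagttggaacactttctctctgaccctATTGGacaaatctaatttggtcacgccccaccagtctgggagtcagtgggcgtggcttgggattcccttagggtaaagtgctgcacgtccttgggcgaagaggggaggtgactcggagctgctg
Cox8a, chr19:7217567-7217866, minus strand: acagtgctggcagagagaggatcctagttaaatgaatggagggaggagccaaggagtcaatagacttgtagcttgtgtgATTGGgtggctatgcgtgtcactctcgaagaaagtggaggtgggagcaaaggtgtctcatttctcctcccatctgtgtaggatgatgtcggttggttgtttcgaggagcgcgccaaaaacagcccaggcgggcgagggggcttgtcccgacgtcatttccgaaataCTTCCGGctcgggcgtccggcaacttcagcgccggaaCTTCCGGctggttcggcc
Cox8b, chr7:140900397-140900696, minus strand: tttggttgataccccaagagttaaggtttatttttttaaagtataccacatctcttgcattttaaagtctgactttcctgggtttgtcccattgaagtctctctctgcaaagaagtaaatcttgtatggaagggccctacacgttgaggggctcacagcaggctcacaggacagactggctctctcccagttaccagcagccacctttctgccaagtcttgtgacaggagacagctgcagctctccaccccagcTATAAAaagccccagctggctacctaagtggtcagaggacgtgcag
Sdhb held an NRF1 motif at base 197, a CCAAT motif at base 242 and an ETS motif at base 257. Cox8a held ETS motifs at bases 246 and 283 and CCAAT at base 80, and Cox7a2 held none of the motifs searched. Of the muscle isoforms, Cox7a1 held CCAAT at bases 114 and 177. Cox8b held the letters TATAAA, searched as the TATA box, at base 255, among the 50 bases after the annotated start. The CpG count was 15 for Sdhb, 20 for Cox7a2 and 19 for Cox8a, against 7 for Cox7a1 and 2 for Cox8b. Low counts were not limited to muscle isoforms: Cox7b had 5 and Ndufc2 had 8.

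Promoters were found for 76 of the 93 genes, and all 12298 promoters of tested genes were searched in the same way. NRF1 (nuclear respiratory factor 1), the ETS factor GABP (also called NRF-2), YY1 and the estrogen-related receptors (ERR) are known regulators of nuclear genes for the respiratory chain. The NRF1 motif, GCGCATGC or GCATGCGC on the other strand, was in 12 promoters of the set (15.8%), among them those of Sdhb, Uqcrc1, Cox6a1 and Atp5g2, and in 4.55% of all. The YY1 motif, AAGATGGC or GCCATCTT, was in 10 (13.2%), among them those of Ndufs4, Ndufs6 and Atp5pb, and in 4.03% of all. The ETS motif, CCGGAAG or CTTCCGG, was in 18 (23.7%) and in 15.2% of all, and the ERR motif, TCAAGGTCA or TGACCTTGA, was in those of Atp5g3 and Sdhd and in 0.277% of all. The palindromic CRE motif, TGACGTCA, was in 4 (5.26%) and in 2.91% of all, CCAAT or ATTGG in 34 (44.7%) and in 38.1%, and TATAAA or TTTATA in 8 (10.5%) and in 9.35%. None of the 7 motifs contains another, and a promoter could be counted under several. The GC content was alike, with a median of 58.5% in the set and 59.3% over all. These are matches of letters and were not tested for binding.

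**Figure D3:**
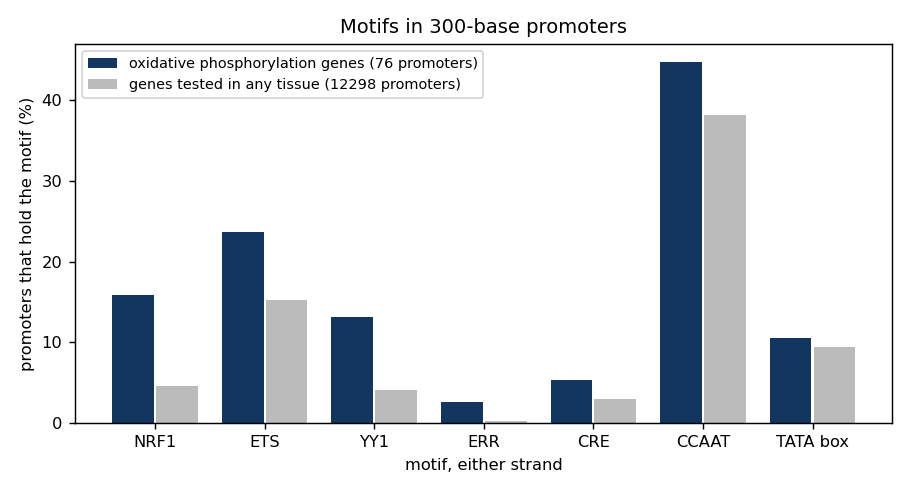
Percent of promoters (300 bases) that hold each motif on either strand, for 76 genes of the set and for all 12298 tested genes with a promoter. NRF1 stands at 15.8% against 4.55% and YY1 at 13.2% against 4.03%, whereas the TATA box stands at 10.5% against 9.35%.

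Markers of other cell types moved with the muscle isoforms, and their part in the levels was not tested. In lung, all 9 heart muscle genes were well above background on at least 1 array and 4 on all 20. Their mean ran from 0.27 to 4.54 in D0, from 2.64 to 4.73 in D1, from 0.33 to 4.27 in D2 and from 0.87 to 4.72 in D3, against -0.56 to -0.39 over the liver arrays. Cardiac muscle is known to line the pulmonary veins of mice. In D0 the lung levels of Cox8b in mice 1 to 5 were 6.49, 3.02, 3.11, 3.55 and 5.17, while those of Myh6, the atrial myosin heavy chain, were 6.70, 5.12, 6.19, 0.70 and 7.05. Mice 1 and 5 had the highest values of both, and mouse 4, with little Myh6, still had Cox8b above every liver array. The 7 lung arrays with the highest Cox8b (5.02 to 6.49) were also the 7 with the highest mean of the 6 brown fat genes, at 1.16 to 1.66 against at most 1.03 on the other lung arrays. They included every lung array of 1 slide (mice 5, 10, 15 and 20), and the part of the slide was not tested. The liver arrays had a mean of 1.97 to 2.25 for these 6 genes, with Cox8b on none well above background. On the 7 lung arrays Cidea ran from 2.63 to 4.42 and Ppara from 2.83 to 3.21. Dio2 ran from 0.32 to 1.80, Elovl3 from -0.20 to 0.48 and Cpt1b from -0.55 to 0.86. Ucp1 was at 1.80 in D0 mouse 1 and 1.60 in D2 mouse 14, and at most 0.35 on the remaining lung arrays. The lowest Cox8b of all lung arrays, 2.51, came from the D2 mouse with the lowest Myh6, 0.17. D0 mouse 1 also had the highest lung Cox6a2 (2.99) and Cox7a1 (2.87) and was the lung array with skeletal muscle genes, Acta1 at 6.90 and Ckm at 5.56. Without this mouse the lung to liver difference was 5.39 for Cox6a2 and 1.27 for Cox7a1 (adjusted p = 0.0025), and Cox8b was still called higher in lung.

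In forestomach, Cox7a1 moved with Atp4a, the proton pump subunit of parietal cells. Atp4a was above 4 on 10 arrays (5.15 to 7.76; 2 of D0, 4 of D1, 3 of D2 and 1 of D3) and at most 3.13 on the other 10. The forestomach levels of Cox7a1 were -0.69, 2.82, 2.10, -0.81 and -0.90 in D0, and -1.46, 3.22, 2.03, 3.48 and 3.11 in D1. They were -2.02, 3.34, 2.78, 1.44 and -0.91 in D2, and -0.67, -1.21, -0.64, 2.29 and -0.72 in D3. All values above 1 came from the arrays with Atp4a above 4. Of the 90 tested genes, 84 had the higher median on those arrays, as did 45.6% of all probes. They were 76 of 77 subunits that are neither assembly factors nor one of the 6 isoforms called higher in lung than in liver (median difference 0.57, against -0.03 over all probes), 5 of 7 assembly factors (0.10) and 3 of those 6 isoforms. In all, 7 genes had every value on those arrays above every other value (Ndufb8, Ndufb9, Sdhd, Cox4i1, Cox6a1, Cox7a1 and Cox8a), while 2.08% of all probes did. The mean of the 5 hepatocyte genes also moved with these arrays. It ran from 1.47 to 4.65 on the 10 arrays with Atp4a above 4. On 9 of the other 10 it ran from 0.03 to 2.68. It was 4.72 on D2 mouse 15, where the median of the subunits relative to D0 was -0.18. The 5 genes did not move alike. On the 10 arrays with Atp4a above 4, Apoa1 ran from 2.86 to 7.04 and Ttr from 2.01 to 6.87. Serpina1a ran from 1.70 to 5.62 and Alb from 0.38 to 4.11 there, while Cps1 was at most 0.24. All 5 were well above background on at least 1 forestomach array and 0 on all 20. Of the 6 glandular stomach genes, 1 was well above background on all 20 arrays and each was so on at least 1. Their mean ran from 0.71 to 6.95 in D0, 1.41 to 8.10 in D1, 0.64 to 7.22 in D2 and 0.24 to 6.92 in D3. With those 10 arrays left out, 1 D1 array remained. Cox7a1 was then 1.78 higher in lung than in forestomach, and its liver to forestomach difference was 0.41 and not called. The highest forestomach Cox8b, 5.34 in D0 mouse 5, came from the array with the highest mean of the 6 fat genes (5.37, with Adipoq at 6.26) and of the 6 brown fat genes (2.34, with a forestomach median of 1.75). On that array Ucp1, the uncoupling protein that defines brown fat, was at 2.62, against at most 1.07 on the other forestomach arrays, and Ppara (5.93) was also at its forestomach maximum. Cidea was at 7.01 there, and Elovl3, Dio2 and Cpt1b were at -0.19, -0.40 and -0.93. In D2 mouse 15 and D1 mouse 10 Cidea was also at 7.01 and 7.02, with Cox8b at 2.69 and 2.12. The forestomach arrays of mice 5, 10, 15 and 20 shared 1 slide, and Cox8b was at 2.90 in mouse 20. Cox8b was at most 1.89 on the other forestomach arrays, and the part of the slide was not tested.

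**Figure D4:**
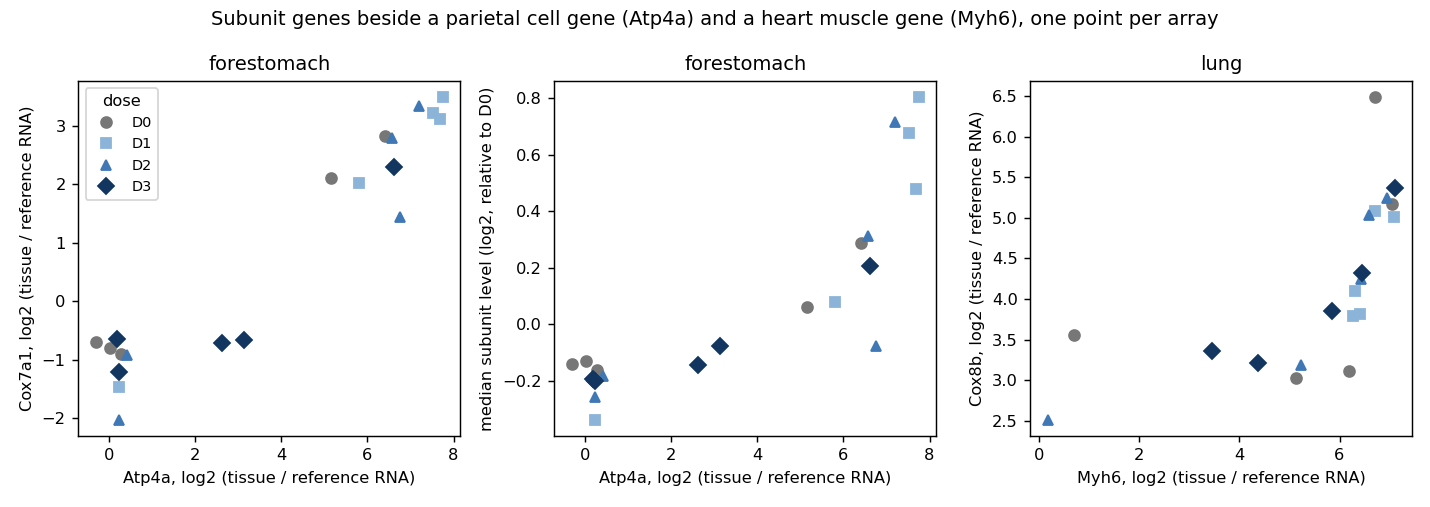
Forestomach Cox7a1 and the median of the 83 tested subunits, relative to D0, against Atp4a, and lung Cox8b against Myh6, one point per array, on the scale of log2 ratio to the reference. The 10 forestomach arrays with Atp4a above 5 hold all Cox7a1 values above 1, and lung Cox8b runs from 2.51 to 6.49.

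Lung was also below forestomach for many genes. Of 90 genes, 52 were lower in lung and 4 were higher (Cox4i2, Cox6a2, Cox6b2 and Cox8b), with a median of -0.66 against 0.01 over all probes, of which 15.7% were called lower and 18.8% higher. For 28 of the 93 genes all 20 lung values lay below all 20 forestomach values, as for 5.24% of all probes. All 8 genes of complex III were lower (median -0.86), as were 13 of 17 of complex V (median -0.78), 21 of 38 of complex I (median -0.67), 8 of 16 of complex IV (median -0.48), 1 of 4 of complex II (median -0.47) and 1 of 7 assembly factors, Ndufaf1 (-0.67). Cox7b was the common complex IV subunit with the largest difference, 2.79-fold lower in lung (-1.48, SE 0.095, adjusted p = 8.41e-20). Without the 10 arrays with Atp4a above 4, which left 3, 1, 2 and 4 forestomach arrays of D0 to D3, 31 genes were lower in lung than in forestomach and 6 higher, while 16% of all probes were called lower and 19.5% higher, and the median of the genes was -0.33 against 0.02 over all probes.

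Liver was above forestomach for fewer genes. Of 90, 32 were higher in liver and 4 lower (Cox6a2, Cox7a1, Cox8b and Ndufa4l2), while 17.5% of all probes were called higher and 21.5% lower; the median was 0.46 against -0.02 over all probes. Complex II gave 4 of 4 higher (median 1.02), complex I 14 of 38 (median 0.47), complex V 5 of 17 (median 0.46), complex III 3 of 8 (median 0.42) and the assembly factors 4 of 7 (median 0.69). In complex IV 2 of 16 were higher, Cox6a1 with the larger difference (0.67, 1.59-fold), and the median was -0.01. Taking from each other group the gene that was most above forestomach in liver, the assembly factors gave Ndufaf6 (1.91, SE 0.052, 3.77-fold, adjusted p = 3.77e-37), which was also 5.49-fold lower in lung than in liver. Ndufaf1, another assembly factor, followed at 1.54. Complex II gave Sdhb, as above, complex III Uqcrq (1.29, 2.44-fold), complex I Ndufv3 (1.20, 2.29-fold) and complex V Atp5g3 (1.16, 2.23-fold). Ndufa4l2 was 2.60-fold lower in liver (-1.38, adjusted p = 2.88e-14). Without the 10 arrays with Atp4a above 4, 53 genes were higher in liver and 3 lower, while 18.5% of all probes were called higher and 21.8% lower, and the median of the genes was 0.69. With quantile normalisation of all channels that median was 0.25, and 26 genes were higher and 3 lower.

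Other genes that serve the respiratory chain were read from 5 lists. Of 38 tested partners and assembly factors of complexes II to V and of complex I, 31 were lower in lung than in liver and 0 higher (median -1.21). Cyc1, the heme subunit of complex III, gave -2.20, and Cycs, cytochrome c itself, gave -1.68. For this list 15 of 38 were lower in lung than in forestomach, and 18 were higher and 4 lower in liver than in forestomach. Genes that maintain and transcribe the mitochondrial genome were lower in lung than in liver in 8 of 13 cases, among them Tfam, which packages that genome (-1.13), and 0 were higher. Against forestomach 0 of the 13 were lower in lung and 1 was higher, Polg, the polymerase of that genome (0.67), while in liver 7 were higher and 0 lower. The enzymes of the citric acid cycle and pyruvate dehydrogenase were lower in lung than in liver in 10 of 17 cases and than in forestomach in 10 of 17. Suclg2, a subunit of succinyl-CoA ligase, gave the values -3.09 and -1.12. For these lists too, 19.4% of all probes were called lower and 26.2% higher in lung than in liver, and 15.7% and 18.8% in lung than in forestomach, while 17.5% were called higher and 21.5% lower in liver than in forestomach. Of 10 regulators, 3 were lower in lung than in liver, among them Ppargc1a, the coactivator of mitochondrial biogenesis (-1.85) and Esrra (-0.79), and 1 was higher, Gabpb1 (0.80); against forestomach 2 were lower and 1 higher in lung. Of 9 carriers and uncouplers, 3 were higher and 3 lower in lung than in liver, and 0 higher and 3 lower in lung than in forestomach. Against liver, Slc25a4, the ADP/ATP carrier of heart and skeletal muscle, was higher by 4.93, Ucp2 by 2.31, and Slc25a5, the carrier of most other tissues, was lower by -1.56. Between liver and forestomach, 0 carriers and uncouplers were higher in liver and 3 lower. For the regulators these counts were 2 and 2, and for the citric acid cycle and pyruvate dehydrogenase 8 and 2.

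None of these genes was called at any dose of BghiP. At D1, D2 and D3 against D0 limma called 0 genes in each tissue (90 tested in lung and in forestomach, 89 in liver) and 0% of all probes. A slope on dose was called for 0 genes in each tissue, and for 0.239% of all probes in liver and 0% in lung and forestomach. The change at D3 was not called as different between tissues for any of the genes, nor for any probe (0%). At an unadjusted p under 0.05, the counts at D1, D2 and D3 were 1, 0 and 0 of 90 genes in lung (2.22%, 3.4% and 4.81% of all probes), 1, 0 and 4 of 89 in liver (3.03%, 4.15% and 12.1%) and 20, 1 and 0 of 90 in forestomach (9.37%, 3.65% and 1.5%). The lowest adjusted p among the genes at D3 was 0.998 in lung and 0.277 in liver. With the slide as a block, since each slide of lung and forestomach held all 4 doses, limma again called 0 genes at any dose, and the counts at an unadjusted p under 0.05 were 6, 5 and 12 genes in lung (9.37%, 12.3% and 15.6% of all probes), 3, 2 and 13 in liver (4.24%, 6.83% and 17.9%) and 28, 4 and 2 in forestomach (18.1%, 9.44% and 6.42%). Under that block, adjusted p among the genes at D3 went down to 0.147 in lung and 0.115 in liver, and 0.0677% of all probes in lung and 0.0927% in liver were called at D3. The median change of the genes was -0.04, -0.03 and -0.03 at the 3 doses in lung, -0.02, -0.04 and -0.02 in liver and 0.33, 0.07 and -0.07 in forestomach. None of the genes of the 5 further lists was called at any dose in any tissue.

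The genes with the lowest p at D3 give the size of what remained below the threshold. In liver, Ndufs6, a subunit needed late in the assembly of complex I, lay at 2.02, 1.95, 2.01, 1.97 and 2.03 in D0 and at 1.85, 1.76, 1.86, 1.67 and 1.68 in D3, a difference of -0.23 (SE 0.086, unadjusted p = 0.0146, adjusted p = 0.289). Every D3 value was below every D0 value, and the D1 values ran from 1.79 to 2.01 and the D2 values from 1.63 to 2.04. Ndufs1, the largest subunit of complex I, lay at 0.56, 0.15, 0.52, 0.57 and 0.51 in D0 and at 0.70, 0.77, 0.89, 0.64 and 0.59 in D3 (0.25, SE 0.103, adjusted p = 0.333), again without overlap. Ndufa10 lay at 1.32, 0.67, 0.74, 1.26 and 0.94 in D0 and at 1.17, 1.48, 1.22, 1.35 and 1.39 in D3 (0.33, SE 0.122, adjusted p = 0.277), with overlap. At D3 in liver 1 gene of 89 had all values above D0 (Ndufs1) and 2 had all below (Ndufs6 and Ndufc1), against 0.919% and 1.81% of all probes.

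In lung, Cox5b lay at -0.31, -0.85, -0.41, -0.75 and -0.42 in D0 and at -0.73, -0.79, -0.79, -0.96 and -0.68 in D3 (-0.24, SE 0.119, adjusted p = 0.998), within the range of D0 but for 1 mouse. Atp5l, subunit g of the membrane part of ATP synthase, lay at 0.79, 0.73, 0.78, 0.63 and 0.63 in D0 and at 0.53, 0.62, 0.59, 0.53 and 0.49 in D3 (-0.16, SE 0.080), which was 1 gene of 90 below D0 without overlap, against 0.384% of all probes; 0 genes of 90 lay wholly above D0, against 0.438%. Ndufa6 differed by -0.24 (SE 0.124). In forestomach the lowest p values at D3 were those of Atp5d, the delta subunit of ATP synthase (-0.36, SE 0.187), Ndufs7 (-0.43, SE 0.236) and Ndufaf7 (-0.19, SE 0.114). None of these came near an adjusted p of 0.05.

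Forestomach at D1 was the group in which the set as a whole lay highest. Of 90 genes, 81 had a change above 0, with a median of 0.33, while 46.2% of all probes lay above 0 with a median of -0.02. The medians were 0.31 for complex I, 0.56 for complex II, 0.37 for complex III, 0.38 for complex IV and 0.32 for complex V, and 0.03 for the assembly factors. Ndufa10, with the lowest p of the set, lay at 0.08, -0.49, 0.14, -0.27 and 0.19 in D0 and at 0.31, 0.83, 0.23, 0.91 and 0.22 in D1 (0.57, SE 0.180, unadjusted p = 0.00496, adjusted p = 0.506), and was the 1 gene whose D1 values all lay above D0, as 0.267% of all probes did. The median of the 83 tested subunits on an array, relative to the D0 mean of each gene, was -0.02 ± 0.19 in D0, 0.34 ± 0.47 in D1, 0.10 ± 0.41 in D2 and -0.08 ± 0.17 in D3 (mean ± SD, n = 5), so that D1 ran from -0.34 to 0.80 and overlapped D0. Atp4a was above 4 on 4 of the 5 D1 arrays, 2 of D0, 3 of D2 and 1 of D3. Without these arrays 1 D1 array (mouse 6) and 3 D0 arrays were left, and the D1 median, which is then that of a single mouse, was -0.22. The hepatocyte mean was 0.27 in D1 mouse 6 and 2.26 to 4.65 in the other D1 mice, against 0.90 to 2.76 in D0. Of its 5 genes, Cps1 was at most 0.24 on the D1 arrays. Leaving out mouse 9 gave a D1 median of 0.21 and leaving out mouse 6 one of 0.49, the ends of the range without 1 mouse at a time. The part of glandular stomach tissue in the D1 values was not tested further, nor was the source of the hepatocyte genes.

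**Figure D5:**
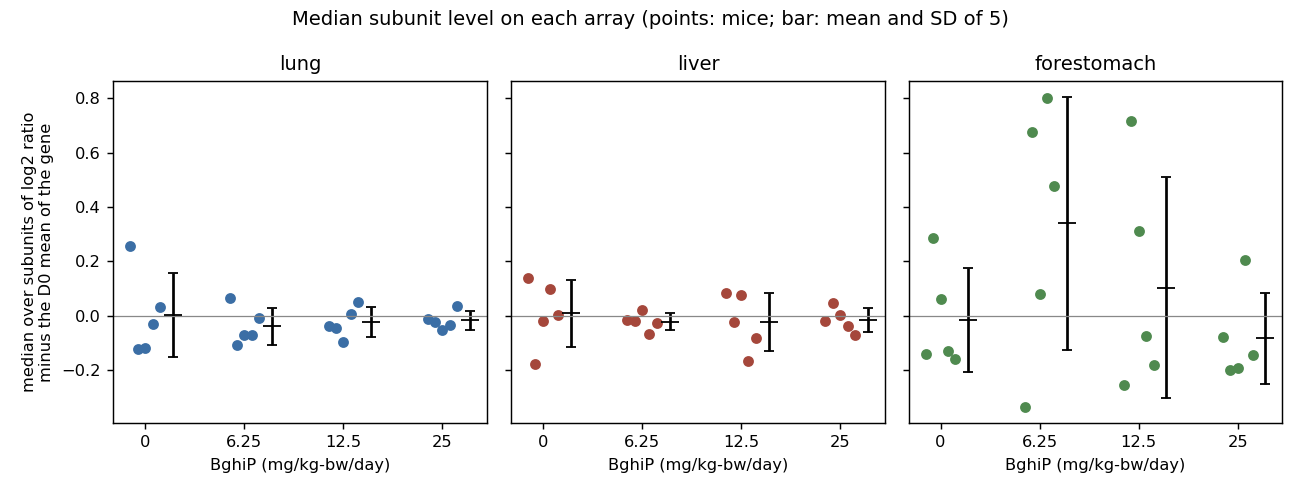
Median over the tested subunits (83 in lung and forestomach, 82 in liver) of the log2 ratio minus the D0 mean of the same gene, one point per array, with mean ± SD of the 5 arrays of each dose, by tissue. Lung runs from -0.12 to 0.26, with D0 mouse 1 highest, liver runs from -0.18 to 0.14, and forestomach spreads from -0.34 to 0.80 at D1.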

How the data were processed

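RNA of 60 samples (lung, liver and forestomach of the same 20 mice) was measured on Agilent SurePrint arrays, with tissue RNA in Cy5 and Universal Mouse Reference RNA in Cy3. The deposited scanner files hold the red and green intensity of each spot; their headers name Feature Extraction 10.7.3.1 and the mm9 build. The deposited series table holds log2 ratios that the authors normalised by LOWESS without background subtraction. It was used as an alternative: the correlation with the ratios computed here was between 0.992 and 0.999 on every array, so the table has the same scale and direction. The authors ran MAANOVA with thresholds on FDR and fold change, and no values of those tests were used.

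Here, with limma 3.58.1 (R 4.3.3, data.table version 1.17.8), median signals without background subtraction were normalised by loess within each array. Control spots had weight 0, outlier-flagged values (0.460%) were treated as missing and 0 values were saturated. Spots of one probe were averaged. A probe was tested in a tissue where 5 or more of the 20 arrays had its Cy5 signal well above background: 31022 in lung, 25893 in liver, 25070 in forestomach and 33255 in any. Each tissue was fitted over its 20 arrays, and tissues were compared in a model of 12 groups, as the mean of the 4 doses. A call required an adjusted p of 0.05 or less (Benjamini-Hochberg over all probes tested) and a change of 1.5-fold or more; a slope on dose had no minimum change. The scripts were tested on simulated data.

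Genes, gene lists and marker lists were chosen with earlier results of these data known. Each gene was read from its brightest probe. Of 96 protein-coding genes of the reference that match the rule, 3 (Ndufb1, Ndufb4b and Ndufb4c) had no probe here; 24 genes had several probes. Named were all Sdh genes and isoform families, the called gene with the largest difference per complex and direction, the middle gene of each complex, and the 3 lowest p at D3 in each tissue; a few more were named after their values were seen (Ndufa10 between lung and liver, the D1 forestomach gene, genes of the 5 lists and those without overlap). The 3 tissues of a mouse are paired by the mouse number in the labels, so mouse as a block was an alternative. The number of arrays limits the precision. The expression levels rest on 1 dye orientation. Sequences came from RefSeq (GRCm38.p6); of several promoters of a gene the first listed was taken. Alternatives were other background corrections, filters, normalisations, blocks by mouse and by slide, D0 alone and leaving out each mouse.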

Additional observations from a re-analysis of the deposited data

Results flagged for a closer look

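For the isoform genes, 5 of 108 groups of 5 arrays held 1 array whose gap to its nearest neighbour was over 0.71 of the range of the group, and chance flags about 1 in 20 groups. In liver these were Cox4i2 in D0 mouse 2, at -0.076 with the nearest at -0.35, and Cox6a1 in D1 mouse 8, at 2.05 with the nearest at 1.73. In forestomach D3, mouse 19 stood above the others for Cox7a1 (2.29, nearest -0.64) and for Cox7a2 (0.98, nearest 0.47), and it was the 1 array of D3 with Atp4a above 4 (6.63). In forestomach D0, Cox8b of mouse 5 was 5.34 with the nearest at 1.63, on the array with the highest mean of fat genes.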

How the results depend on the processing

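The counts and medians between tissues kept their direction under the settings tried, and 0 genes were called at any dose under each of them. The replicate block by mouse left 73 lower and 6 higher in lung than in liver, 52 and 4 for lung against forestomach, and 32 higher and 4 lower in liver than in forestomach. Without 1 mouse at a time these counts ran from 71 to 73 and 6 to 6, from 49 to 55 and 4 to 4, and from 28 to 35 and 4 to 4. With the slide as a block the lowest adjusted p of a gene was 0.0576, for the liver slope. Without 1 mouse at a time the median change ran from -0.070 (mouse 2) to 0.0015 (mouse 1) for D1 in liver, from -0.064 to 0.028 for D2 in lung and from -0.056 to 0.032 for D3 in lung, where leaving out mouse 2 gave the lowest and mouse 1 the highest values. For D1 in lung it ran from -0.066 to 0.018. For D2 and D3 in liver it ran from -0.080 to -0.0062 and from -0.060 to 0.015. In forestomach it ran from 0.21 (mouse 9) to 0.49 (mouse 6) for D1, from -0.065 (mouse 12) to 0.18 (mouse 2) for D2 and from -0.13 (mouse 19) to 0.0013 (mouse 2) for D3.

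Processed signals moved the median of all probes for lung against forestomach from 0.01 to 0.13. They gave medians of the genes of -0.055 for D1 in liver and -1.42 for lung against liver, and differences of -0.43 for Atp5g2 (lung against liver), -0.19 for Ndufa4l2 (lung against forestomach) and 0.77 for Cox8a (liver against forestomach), in the opposite direction; the deposited ratios gave 0.43 for Cox8a. Requiring all 20 arrays of every tissue to be well above background, which leaves most isoforms untested, gave 2 genes higher in lung than in liver, 0 higher in lung than in forestomach and 2 lower in liver than in forestomach. With D0 alone, lung minus forestomach turned to 0.40 for Cox7a1 and 0.0089 for Cox4i1; without 1 mouse at a time it ran from -0.48 to 0.028 for Cox7a1, and was above 0 without mouse 2 (0.025), mouse 12 (0.013) or mouse 19 (0.028).

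These alternatives were chosen after seeing the data. Without the 10 forestomach arrays with Atp4a above 4, the D1 median in forestomach was -0.22, from the 1 D1 array left (mouse 6) and thus with no replicate, 31 genes were lower in lung than in forestomach (median -0.33) and 53 higher in liver (median 0.69); lung minus forestomach was 1.78 for Cox7a1, 0.36 for Cox4i1 and 0.33 for Cox6a1, and liver minus forestomach 0.41 for Cox7a1 and 0.26 for Cox8a. Quantile normalisation of all channels gave a median of -0.93 for lung against liver and 0.25 for liver against forestomach, -0.14 for Ndufa4l2 and 0.12 for Cox4i1 (lung against forestomach), and 0.14 for Cox8a (liver against forestomach). Of the values of single genes, 2876 kept direction and side of the threshold, 53 lost and 3 gained a call, and 17 turned. Except where a setting itself removes arrays or genes, the cause was not tested. Signal over background limited Cox8b in liver and the testis isoforms.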
